A study of Homo sapiens with 4 samples.

Results

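The genes described here are the neuregulin gene NRG1, the ligand genes HBEGF, AREG and BTC of the same growth factor family, and the receptor genes EGFR, ERBB2, ERBB3 and ERBB4. All probes that the platform annotation assigns to these 8 symbols were taken, of 20046 named genes on the array. The annotation held 20 probes for 7 of the 8 genes and none for AREG, which was therefore not analysed here. The set was chosen by symbol around NRG1, selected on its normalized signals in TMEM88 shRNA and control cells, which earlier work on these data had placed among the largest rises. Values of the comparison of TMEM88 shRNA with control are therefore given for these genes as a description, without a test.

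The 2 TMEM88 shRNA arrays held RNA of cells with 2 different lentiviral short hairpin RNAs (shRNAs) against TMEM88, 1 array with hairpin 691 and 1 with hairpin 94. The 2 control arrays held RNA of cells with a control shRNA. All were cells of RUES2, an established human embryonic stem cell line, transduced and puromycin-selected before differentiation and harvested on day 5 of cardiac differentiation, which the labels call the cardiovascular progenitor stage. Each hairpin was measured once. The labels do not state whether the samples were separate cultures, so the spread behind the p-values may be a technical one, and the small number of arrays limits the precision. TMEM88, whose membrane protein binds Dishevelled and inhibits Wnt signalling, had a signal of 360.7 with shRNA 691 and 1329.7 with shRNA 94, against 2292.8 and 2987 in the controls.

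Neuregulins and the EGF-like ligands are made as membrane proteins, are released by sheddases and bind receptors of the ERBB family, which signal as pairs through the RAS and MAP kinase cascade and through PI3 kinase. NRG1 binds ERBB3 and ERBB4. ERBB2 has no known ligand of its own and acts as the partner of the others, and ERBB3 has a weak kinase and depends on its partner. In the embryonic heart, NRG1 from the endocardium acts on ERBB2 and ERBB4 in the myocardium and is needed for trabeculation, as shown in the mouse.

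In these samples NRG1 was far higher with both TMEM88 hairpins than in both controls, while its receptor partner ERBB2 was detected everywhere with overlapping groups, ERBB3 was slightly higher, and ERBB4 and EGFR were not detected. A probe is called detected on an array where its deposited detection p-value is under 0.01. By this rule 3 of the 20 probes were detected on all 4 arrays, 3 on some of them and 14 on none. The lowest signal of any detected probe lay between 147 and 152.4, depending on the array. The 14 undetected probes had signals between 106.5 and 144.4.

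**Figure D1:**
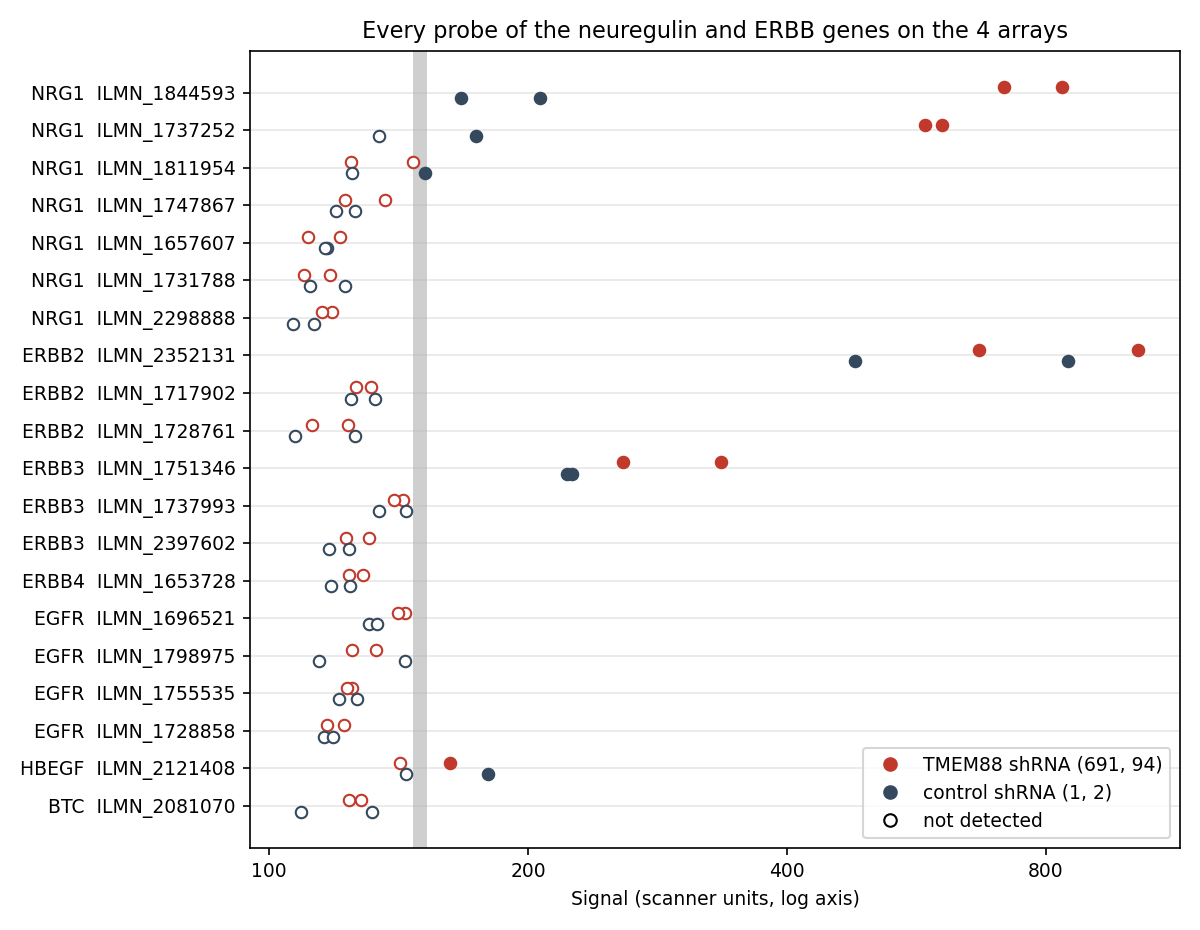
Scanner signal (log axis) of each of the 20 probes on the 4 arrays, TMEM88 shRNA in red and control shRNA in grey, with open circles where the probe was not detected and a grey band at the lowest detected signal of the arrays. The red points of 2 NRG1 probes lie between 579.2 and 837, above all control points of the same probes, and most other probes stay left of the band.

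NRG1 was covered by 7 probes. The probe ILMN_1844593, detected on all arrays, had signals of 715.7 with shRNA 691 and 837 with shRNA 94, against 206.4 in control 1 and 167.2 in control 2. The probe ILMN_1737252, which the annotation ties to the transcript NM_013962, had signals of 579.2 and 605.7 with shRNAs 691 and 94, against 174.2 and 134.2 in controls 1 and 2, and was not detected in control 2. For both probes the TMEM88 shRNA arrays lay together and well above the controls, and control 1 was above control 2.

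After background correction and quantile normalization, on a log2 scale, ILMN_1844593 averaged 9.40 ± 0.29 with TMEM88 shRNA and 6.27 ± 0.48 in the controls (SD, n = 2 each), a difference of 3.13 or 8.75-fold. ILMN_1737252 averaged 8.94 ± 0.18 with TMEM88 shRNA and 5.48 ± 0.84 in the controls (SD, n = 2 each), a difference of 3.46. The difference of its controls from each other was 1.18, so its size is less certain. Each hairpin alone stood above the control mean, by 2.92 with shRNA 691 and by 3.34 with shRNA 94 for ILMN_1844593. The size depends on how background is treated. The difference for NRG1 was 1.99, or 3.96-fold, with no background correction and 2.09, or 4.26-fold, in the authors' deposited log2 values.

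The remaining 5 NRG1 probes did not follow this pattern. ILMN_1811954, tied to the transcript NM_013960, was detected in control 1 alone, with signals of 147 and 124.6 with shRNAs 691 and 94, against 151.9 and 124.8 in controls 1 and 2. The other 4 probes were detected on no array, with signals between 106.5 and 136.3. These 4 include both probes tied to NM_013959, the transcript of the sensory and motor neuron-derived factor form of NRG1, and ILMN_2298888, which is tied to the same transcript as the bright ILMN_1737252. NM_013962 encodes the glial growth factor form. The accession tied to ILMN_1844593, AF176921, is not among the RefSeq transcripts of NRG1. Probe positions are not given in the sources used here, so which transcripts each probe can bind is unknown, and the disagreement between probes is given as measured.

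Among the other ligands, HBEGF, which encodes heparin-binding EGF-like growth factor, lay near the detection limit. Its probe had signals of 162.5 with shRNA 691 and 141.9 with shRNA 94, against 144.1 in control 1 and 179.5 in control 2, and was detected with shRNA 691 and in control 2. The groups overlapped. The log2 level of HBEGF averaged 5.39 ± 0.31 with TMEM88 shRNA and 5.75 ± 0.67 in the controls (SD, n = 2 each), a difference of -0.36 that is smaller than the gap between the controls and becomes 0.12 without control 2. The betacellulin gene BTC had signals of 123.9 and 127.8 with shRNAs 691 and 94, against 131.8 and 109 in controls 1 and 2, and was not detected on any array. With both groups below detection, no fold change is given for BTC.

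ERBB2 was detected on all arrays through the probe ILMN_2352131, with signals of 1023.3 with shRNA 691 and 670.1 with shRNA 94, against 850.5 in control 1 and 480.8 in control 2. The groups overlapped, since shRNA 94 lay below control 1. The log2 level of ERBB2 averaged 9.54 ± 0.41 with TMEM88 shRNA and 9.02 ± 0.66 in the controls (SD, n = 2 each). The difference of 0.52 was smaller than the gap of 0.93 between the controls. It was 0.98 without control 1 and 0.05 without control 2, so it rests on which control is used. The 2 other ERBB2 probes were not detected on any array, and 1 of them, ILMN_1728761, is tied to the same transcript as the detected one.

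ERBB3 was likewise detected on all arrays by 1 of its 3 probes, ILMN_1751346, with signals of 335.2 with shRNA 691 and 258.2 with shRNA 94, against 225.3 and 222 in controls 1 and 2. Both TMEM88 shRNA arrays lay above both controls, which were nearly equal. The log2 level of ERBB3 averaged 7.54 ± 0.26 with TMEM88 shRNA and 6.87 ± 0.02 in the controls (SD, n = 2 each), a difference of 0.67 or 1.59-fold. With no background correction and in the authors' deposited log2 values it was 0.37 and 0.40. The other 2 ERBB3 probes, both tied to the transcript NM_001005915, were not detected.

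ERBB4, the receptor that carries NRG1 signals in heart muscle, had 1 probe. Its signals were 128.6 and 123.9 with shRNAs 691 and 94, against 118 and 124.3 in controls 1 and 2, with detection p-values of at least 0.352. EGFR, the receptor of EGF-type ligands, had 4 probes with signals between 114.2 and 143.9, and none was detected on any array. The nearest to detection was EGFR in control 1, with a detection p-value of 0.0312 for ILMN_1798975. Low levels of ERBB4 and EGFR below the array's detection limit cannot be seen in these data.

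**Figure D2:**
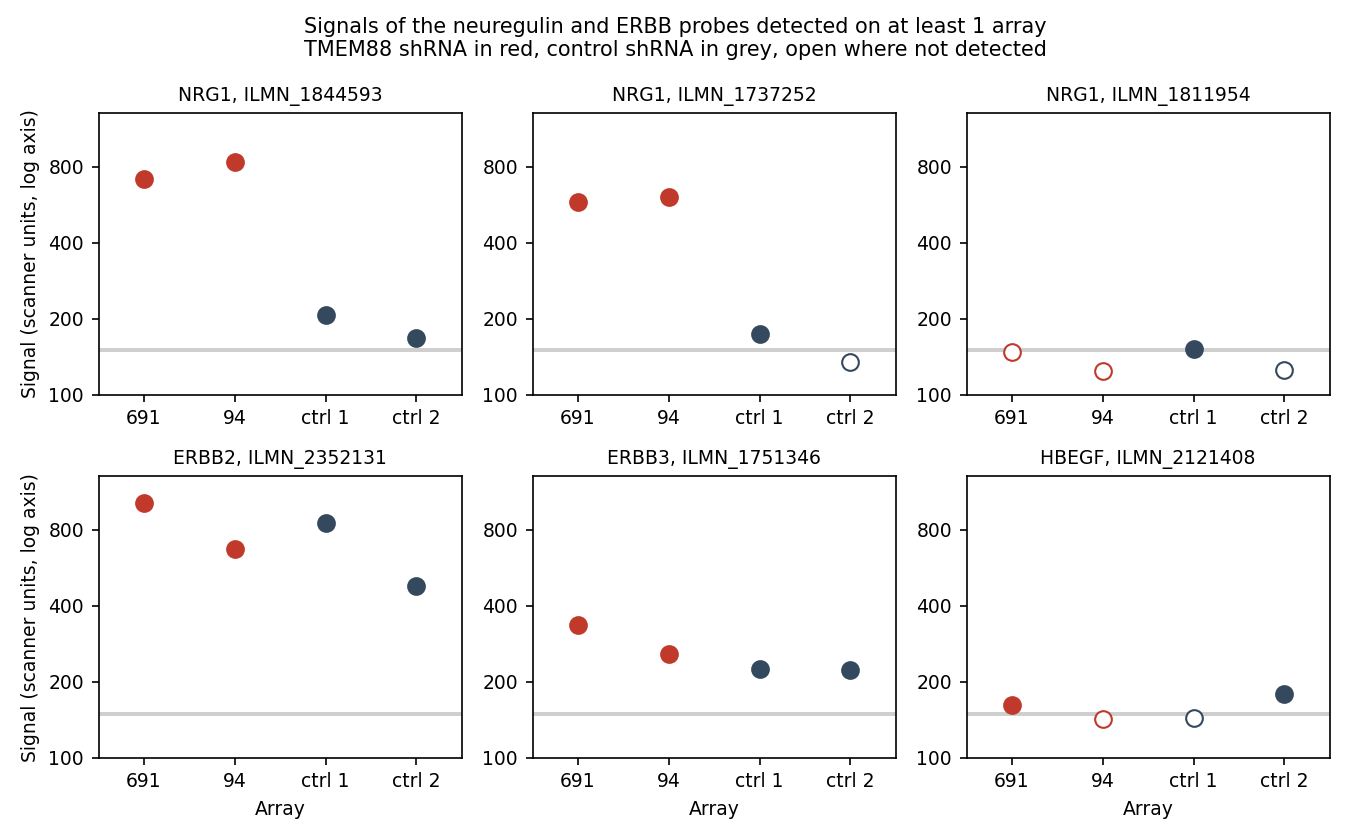
Scanner signal (log axis) of the 6 probes detected on at least 1 array, 1 panel per probe, with the arrays along the horizontal axis, open circles where not detected and a grey line at the lowest detected signal. The NRG1 probes ILMN_1844593 and ILMN_1737252 in the upper left and centre panels separate the red from the grey points, and ERBB3 does so narrowly. The NRG1 probe ILMN_1811954 in the upper right panel overlaps, as do ERBB2 and HBEGF.

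Across all arrays, NRG1, ERBB2, ERBB3 and HBEGF passed the filter for testing, which asked for detection on 2 or more of the 4 arrays, as did 10377 genes in all. For NRG1 and ERBB3 both TMEM88 shRNA arrays lay above both control arrays. Groups were apart in this way for 50.2% of all tested genes, 25.2% higher and 24.9% lower with TMEM88 shRNA. By the size of the difference NRG1 ranked 10 among the rises, ERBB3 959 and ERBB2 1448.

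The comparison of the hairpins with each other was not used to choose these genes and was tested. After background correction and normalization, the TMEM88 level was 9.62% of the controls' geometric mean with hairpin 691 and 52.9% with hairpin 94. NRG1 differed by -0.41 between shRNA 691 and shRNA 94 on the log2 scale (95% interval -1.56 to 0.74). ERBB2 differed by 0.58 (95% interval -0.67 to 1.83), ERBB3 by 0.36 (-0.66 to 1.39) and HBEGF by 0.44 (-0.82 to 1.70). None of the 4 genes passed in limma (adjusted p = 1 for each), and none had an unadjusted p under 0.05. Over all genes 0% passed this test in limma and 0.944% had an unadjusted p under 0.05. Each hairpin is 1 array here, and its spread is taken from the controls, with 1 residual degree of freedom, so the test has little power, the intervals are wide and they do not show that the hairpins acted alike.

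Genes whose level followed that of NRG1 were ranked by the Euclidean distance between profiles over the 4 arrays, each gene centred on its own mean. The 5 closest were OTX1 (distance 0.33), SP5 (0.43), DMBX1 (0.49), IGSF21 (0.55) and EBF3 (0.65), where the median distance over tested genes was 3.20. OTX1 and DMBX1 encode homeobox factors of early brain development, SP5 a zinc finger factor induced by Wnt, EBF3 a helix-loop-helix factor and IGSF21 an immunoglobulin-like surface protein. The ranking uses the same values as the choice of NRG1, so other large rises come close and unchanged genes lie far by construction. The 4 points of such a profile share the same arrays, and the ranking is a description. The median distance adds no support to it. IGSF21 and DMBX1 were not detected in either control and stood at least 3.94-fold and 3.72-fold higher with TMEM88 shRNA. Such a bound sets the mean of the TMEM88 shRNA arrays against, per control array, the higher of the lowest detected level and the probe's own level. OTX1 and EBF3 were detected in 1 of the controls.

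**Figure D3:**
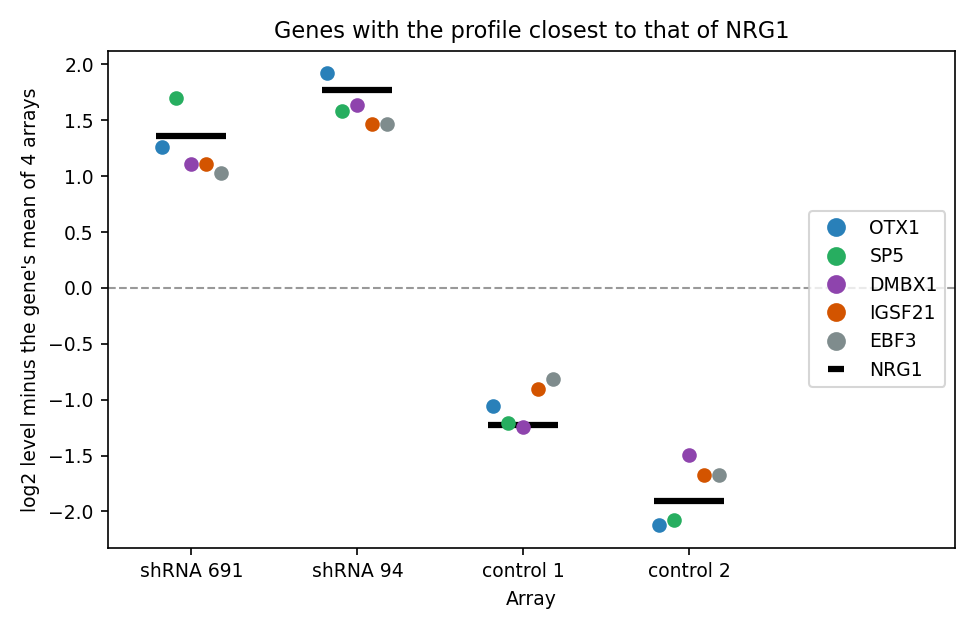
Log2 level minus the gene's mean over the 4 arrays, for NRG1 (black bars) and the 5 genes with the closest profiles (coloured points), on each array. All 6 genes are above their mean on both TMEM88 shRNA arrays and below it on both control arrays, lowest in control 2.

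The promoter windows of the closest pair, OTX1 and SP5, are shown as those of the 2 genes nearest to NRG1 in profile, and the windows of NRG1 and ERBB3 were not analysed here. They run from 250 bases before to 50 bases after the annotated start (RefSeq, GRCh38.p14), OTX1 at chr2:63050580-63050879 and SP5 at chr2:170715087-170715386, both on the plus strand. Capitals mark CTTTGA, the core of sites bound by TCF and LEF factors, or its reverse complement TCAAAG.
OTX1: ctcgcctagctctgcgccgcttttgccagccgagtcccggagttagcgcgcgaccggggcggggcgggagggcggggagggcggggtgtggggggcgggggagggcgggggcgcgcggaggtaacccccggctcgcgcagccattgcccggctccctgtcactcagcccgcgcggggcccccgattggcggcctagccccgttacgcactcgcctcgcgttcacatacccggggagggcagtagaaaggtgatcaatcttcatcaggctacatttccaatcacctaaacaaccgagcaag
SP5: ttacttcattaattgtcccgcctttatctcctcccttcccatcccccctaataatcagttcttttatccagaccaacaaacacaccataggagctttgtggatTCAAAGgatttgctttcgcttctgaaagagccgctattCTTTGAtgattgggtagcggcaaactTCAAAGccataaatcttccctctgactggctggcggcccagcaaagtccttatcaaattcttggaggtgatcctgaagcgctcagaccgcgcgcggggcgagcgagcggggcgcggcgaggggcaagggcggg
The SP5 window held 3 matches and the OTX1 window none, as did those of DMBX1, IGSF21 and EBF3. Of all 35116 windows of this length in the RefSeq table, 12.9% held at least 1 match, where 1 of the 5 closest genes did. Among all windows 35, or 0.0997%, held 3 or more. The cut of 3 equals the count of SP5 itself, so this share is no test of SP5. The table gave 7 windows for 6 of the ligand and receptor genes (ERBB2, ERBB4, EGFR, HBEGF, AREG and BTC), and no match was found in them. A match is a run of letters and not a shown binding site.

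The other genes of the pathway were taken as 6 lists with 74 genes, of which 63 had a probe and 47 were tested in limma over all 10377 genes. In the TMEM88 shRNA cells 3 of the 47 rose (6.38%) and none fell, where 1.98% of all tested genes passed, 0.954% of them higher and 1.02% lower. At an unadjusted p under 0.05 there were 15 of the 47 (31.9%), 12 higher and 3 lower, against 18.3% of all tested genes. Of these 12, 4 (TGFA, GRB7, PIK3CB and DUSP4, named after their values were seen) were detected in neither control and so were tested only through the TMEM88 shRNA arrays, where they are high. The count of 12 is therefore a description. The lists were chosen with earlier results of these data known, so the 3 rises and their share are a description as well. The median log2 difference of the 47 genes was 0.08, and 28 of them (59.6%) were positive. Over all tested genes the median was 0.00125 and 50.1% were positive. The genes that rose were LRIG3, SPRY4 and ETV5.

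LRIG3 belongs to the family of leucine-rich repeat membrane proteins of which LRIG1 promotes the breakdown of ERBB receptors. Its signals were 608.6 and 543.6 with shRNAs 691 and 94, against 275 and 250.7 in controls 1 and 2. LRIG3 rose by 1.62 ± 0.23 on the log2 scale (SE, n = 2 per group, limma adjusted p = 0.0207). It was the 1 of 11 tested genes of receptor turnover and inhibition to pass, and the list had a median of 0.14 with 6 positive differences.

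SPRY4, an inhibitor of RAS and MAP kinase signalling that is itself induced by it, had signals of 665.4 and 554 with shRNAs 691 and 94, against 285.4 and 278.5 in controls 1 and 2. It rose by 1.55 ± 0.23 (SE, limma adjusted p = 0.0244). ETV5, an ETS transcription factor gene induced by the same pathway, had signals of 1150.1 and 1166.4 with shRNAs 691 and 94, against 511.2 and 486.8 in controls 1 and 2. ETV5 rose by 1.49 ± 0.22 (SE, limma adjusted p = 0.026). For each of these genes the arrays of a group lay close together and the groups were far apart. A second probe gave a smaller difference for both, 1.03 for SPRY4 and 0.78 for ETV5. That of ETV5 was detected on all 4 arrays. That of SPRY4 had signals of 190.6 and 162.3 with shRNAs 691 and 94, against 142.9 and 131.1 in controls 1 and 2. It was detected in neither control, so its difference rests on control values below detection. The 2 further SPRY4 probes were not detected. Of 14 tested genes of the ERK response list these 2 passed, the median was 0.43, and differences ran from -1.62 to 1.55 with 9 positive and 5 negative.

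Whether LRIG3, SPRY4 and ETV5 passed changed with the arrays kept and with the detection filter, and the cause was not tested. With either hairpin left out none of the 47 genes passed, while the differences stayed close to the main values, at 1.61 for LRIG3, 1.47 for SPRY4 and 1.55 for ETV5 without shRNA 691. Without shRNA 94 they were 1.64, 1.63 and 1.43 for the same genes. Without control 1 there were 7 rises and 5 falls, and without control 2 there were 6 rises and 1 fall, each including all 3 genes. With no detection filter none passed, at adjusted p-values of 0.0614 to 0.0656 in limma, with the differences as in the main values. Over 11 alternatives the limma adjusted p ran from 0.00439 to 0.186 for LRIG3, from 0.00692 to 0.237 for SPRY4 and from 0.00753 to 0.232 for ETV5. Tested singly against the controls, neither shRNA 691 nor shRNA 94 had a pathway gene that passed in limma, where 0.867% and 0.482% of all tested genes did. At an unadjusted p under 0.05 there were 8 of the 47 genes with shRNA 691 and 10 with shRNA 94, against 8.95% and 8.61% of all tested genes. The 8 include GRB7 and DUSP4, and the 10 include PIK3CB and DUSP4. These genes were detected in neither control and so were tested only through the TMEM88 shRNA arrays, where they are high. Both counts are therefore a description, and no excess over all tested genes is drawn from them.

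**Figure D4:**
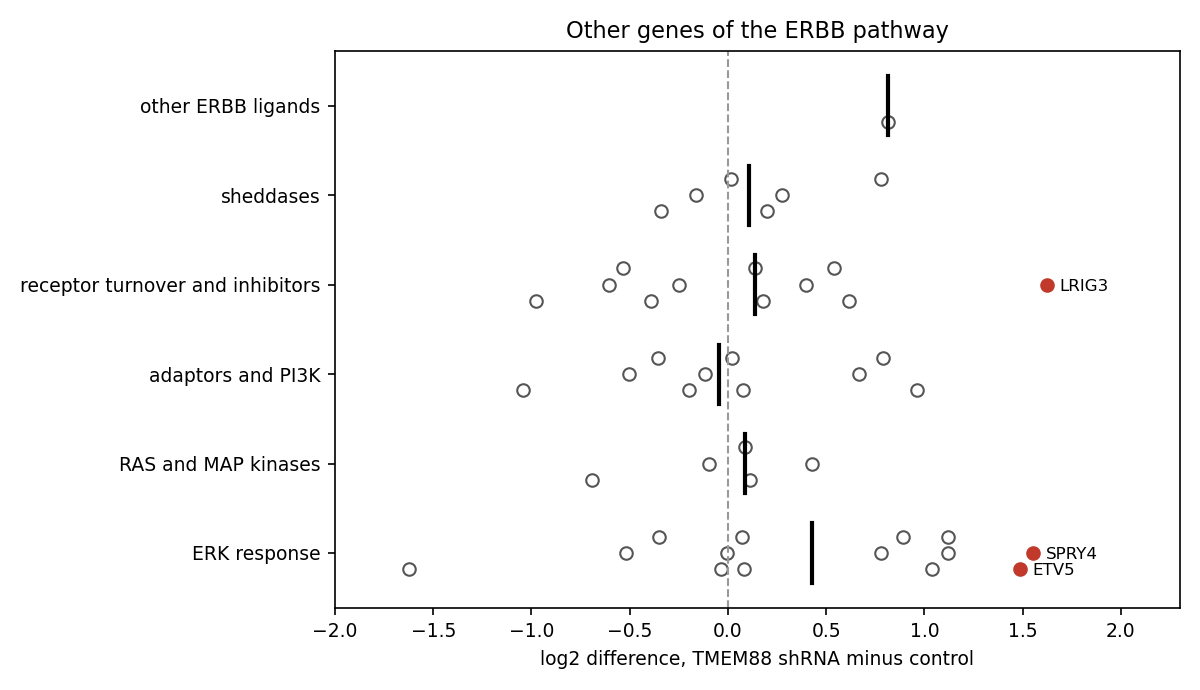
Log2 difference of TMEM88 shRNA minus control for each tested gene of the 6 pathway lists (1 point per gene, black bar at the list's median). Filled red points are the 3 genes that passed in limma, and the other 44 lie between -1.62 and 1.12.

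No other list had a gene that passed in limma, and at an unadjusted p under 0.05 there was 1 ligand gene, 1 gene of the sheddase list, 4 adaptor and PI3 kinase genes and 1 RAS and MAP kinase gene. Of the 6 other ligand genes with a probe (EGF, TGFA, EREG, NRG2, NRG3 and NRG4) TGFA alone was tested. TGFA, an EGFR ligand, had signals of 161.5 and 157.7 with shRNAs 691 and 94, against 136.7 and 127.2 in controls 1 and 2, was detected on neither control and stood at least 1.14-fold higher (limma adjusted p = 0.154). EREG was detected with shRNA 94 alone, at 156.3. NRG2, NRG3, NRG4 and EGF were not detected on any array, so NRG1 was the one detected neuregulin gene.

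Of 6 tested sheddase genes and their regulators, 4 were positive and 2 negative, with a median of 0.11. RHBDF1, a regulator of the sheddase ADAM17, had a log2 difference of -0.16 ± 0.26, and the sheddase gene ADAM19 had 0.02 ± 0.25. The 1 gene of this list at an unadjusted p under 0.05 was RHBDF2, another regulator of ADAM17, at 0.78 ± 0.25 (limma adjusted p = 0.181), named after its values were seen. Of 10 tested adaptor and PI3 kinase genes, 5 were positive, with a median of -0.05. The adaptor gene SHC1 had a log2 difference of 0.67 ± 0.27 and the kinase gene AKT1 had 0.08 ± 0.24. PIK3R1, named after its values were seen, had the lowest value of this list, -1.04 ± 0.27 (limma adjusted p = 0.113). Beside SHC1 and PIK3R1, the genes at an unadjusted p under 0.05 were GRB7 and PIK3CB, both detected in neither control. Of 5 tested RAS and MAP kinase genes, 3 were positive, with a median of 0.09. The kinase genes MAPK3 and MAP2K2 had log2 differences of 0.11 ± 0.25 and 0.09 ± 0.23. The 1 gene of this list at an unadjusted p under 0.05 was HRAS, at -0.69 ± 0.23 (limma adjusted p = 0.182). It was named after its values were seen.

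Markers of several cell types and stages were measured on the same arrays, and their part in the values of NRG1 and ERBB3 was not tested. In bulk RNA a change in the share of a cell type and a change in RNA per cell cannot be told apart. The counts of markers that rose or fell stand beside 0.954% of all tested genes passing higher and 1.02% lower. Counts at an unadjusted p under 0.05 stand beside 18.3% of all tested genes in limma. Counts of positive differences stand beside 50.1% of them. Of 12 endothelial and endocardial genes 5 were tested, none passed in limma (3 at an unadjusted p under 0.05) and 4 were positive, and their summed normalized level was 3540.3 and 2524 with shRNAs 691 and 94, against 1179 and 981 in controls 1 and 2. The von Willebrand factor gene VWF, named after its values were seen as are KDR and TEK, made up 75.3% and 69.5% of this sum with shRNAs 691 and 94, against 64.8% and 46.2% in controls 1 and 2, and had a log2 difference of 1.88 ± 0.34 (SE, limma adjusted p = 0.0502). The receptor genes KDR and TEK had 1.20 ± 0.69 and -0.14 ± 0.28, with overlapping groups. SOX18 and NFATC1, also named after their values were seen, had 1.32 ± 0.28 and 1.01 ± 0.28 (SE, limma adjusted p = 0.0707 and 0.134). For both, the TMEM88 shRNA arrays lay above the controls, as for 25.2% of all tested genes. The defining endothelial genes PECAM1, CDH5, TIE1 and FLT1 were not detected on any array. Of 10 neural crest genes 4 were tested, 2 with positive and 2 with negative differences and a median of 0.26. SNAI2 rose by 1.43 ± 0.25 (SE, limma adjusted p = 0.0443). SOX10 also passed but was detected in neither control, so it was tested only through the TMEM88 shRNA arrays, where it stood at least 2.60-fold higher. TFAP2A and MSX1 had -1.05 ± 0.85 and -0.92 ± 0.52 and did not pass (both named after their values were seen). The summed level of the 4 was 1425 and 1186 with shRNAs 691 and 94, against 855 and 2223 in controls 1 and 2. MSX1 made up 38.8% and 38.0% of this sum with shRNAs 691 and 94, against 60.9% and 77.1% in controls 1 and 2. Without MSX1 the sum was 872 and 735 with shRNAs 691 and 94, against 335 and 508 in controls 1 and 2. FOXD3, TFAP2B, PAX3, PAX7 and NGFR were not detected on any array. Of 6 tested neural ectoderm genes 5 had positive differences and ZIC2, OTX1 and OTX2 rose, while SOX3, named after its values were seen, had -2.38 ± 0.50 (SE, limma adjusted p = 0.0684). The list had a summed level of 4067 and 3806 with shRNAs 691 and 94, against 1514 and 1094 in controls 1 and 2. ZIC2 made up 50.6% and 50.4% of this sum with shRNAs 691 and 94, against 21.5% and 9.55% in controls 1 and 2. PAX6 and SOX1 were not detected. All 9 tested epithelial genes were positive and none passed in limma (5 at an unadjusted p under 0.05), with sums between 20385 and 21568 with TMEM88 shRNA and between 15573 and 16919 in the controls. Of 8 tested cardiac genes 3 had positive and 5 negative differences, and 4 fell (HAND2, MEF2C, MYL7 and MYH6). MEF2C was detected with neither TMEM88 hairpin, so it was tested only through the controls, and stood at least 3.14-fold lower. NKX2-5 and HAND1, named after their values were seen, had 0.97 ± 0.42 and 0.71 ± 0.50 and did not pass. The sums were 8573 and 9046 with shRNAs 691 and 94, against 8422 and 11623 in controls 1 and 2. ISL1 made up 40.0% and 46.6% of them with shRNAs 691 and 94, against 38.8% and 36.3% in controls 1 and 2. ISL1 and HAND1 were detected on all arrays and TBX5 on none. Of 4 tested streak and nascent mesoderm genes MESP1, EOMES and SP5 rose, with sums of 5967 and 4567 with shRNAs 691 and 94, against 503 and 615 in controls 1 and 2. GSC, named after its values were seen, had 0.26 ± 0.22 and did not pass (SE, limma adjusted p = 0.592). It was detected in neither control and so was tested only through the TMEM88 shRNA arrays. TBXT, MESP2 and TBX6 were not detected on any array, and MIXL1 was detected on 1.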

How the data were processed

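Biotin-labelled cRNA of 4 samples was hybridised to Illumina arrays, as stated per the labels. In the deposited scanner table each array has a linear signal intensity and a detection p-value for 47322 probes, per the file headers, with no normalization stated. The authors' series matrix has deposited log2 values for these arrays. They lay within 0.158 of quantile-normalized log2 signal, with medians of 7.02 on each array, and how the authors made them is not stated beyond the tool names lumi and limma 3.12.3, per the submitters' processing notes. Median signals were 130.9 to 135.7, and 15300 to 16516 probes were detected per array.

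Under R 4.3.3 the neqc function (limma 3.58.1) corrected background and normalized the intensities (offset 16, negative controls inferred from detection p). The platform annotation gave 1 symbol for 30113 probes, several for 8 and none for 17201, and 30074 were updated or matched through gene IDs of GRCh38.p14. Each gene was tested by its brightest probe among those detected (p under 0.01) on 2 or more of the 4 arrays, with lmFit and eBayes, 2-sided, Benjamini-Hochberg over 10377 genes, threshold 0.05. The fit of 2 groups had 2 residual degrees of freedom, that of single hairpins 1. The fits were tested on simulated data. Figures were drawn with matplotlib 3.10.9.

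The genes, lists and the rule for named genes (all 8 genes, TMEM88, up to 4 called genes or the 2 brightest of each list, up to 3 called markers and the 5 profiles closest to NRG1, skipping LOC and open reading frame names) were chosen with earlier results of these data known. The alternatives changed background correction, normalization, the values used, the filter, probes per gene, the variance model and the arrays kept.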

Additional observations from a re-analysis of the deposited data

How the results depend on the processing

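With no background correction the difference for NRG1 was 1.99 and for ERBB3 0.37, and in the deposited log2 matrix they were 2.09 and 0.40, both smaller than in the background-corrected values. NRG1, ERBB2 and ERBB3 were positive under all 11 alternatives, from 1.99 to 3.47, 0.05 to 0.98 and 0.37 to 0.85, and HBEGF was negative under 9 of 10, the exception being the fit without control 2. HBEGF has no value among genes detected on all 4 arrays. The number of genes passing over all genes, 205, was 19 with no detection filter and 309 with eBayes with trend and robust. It ran from 50 to 1453 with 1 array left out, highest without control 1, and in such fits the spread comes from the one group that keeps both arrays. The 3 pathway genes became 0 with no detection filter and 0 to 12 with 1 array left out. With trend and robust the falling gene PHLDA1, named here after its values were seen, was added to them, and with the mean over detected probes ETV5 was lost (limma adjusted p = 0.0588). The cause of these moves was not tested. For single hairpins against control, no pathway gene passed under any alternative that gave a value. For the hairpins against each other, none of the ligand and receptor genes did. With a control left out no residual degrees of freedom are left for single hairpins, so these tests were not run. No paired analysis was possible because the groups share no replicate number in the labels. Signals of most of the 20 probes lie at background, which limits what can be said of EGFR, ERBB4 and BTC.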

Other observations

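Beside the rises of SPRY4 and ETV5, the related SPRY1 and ETV4 had positive log2 differences that did not pass (0.89 ± 0.24 and 1.04 ± 0.33, SE, limma adjusted p = 0.126 and 0.179). DUSP4, an ERK phosphatase gene, was detected in neither control and was tested only through the TMEM88 shRNA arrays. It stood at least 1.00-fold higher, a bound that shows no rise. Its log2 difference of 1.12 ± 0.22 (limma adjusted p = 0.0628) rests on control values below detection. The early response gene EGR1 had 1.12 ± 0.49 with overlapping groups (limma adjusted p = 0.283). SPRY2 stood at 0.08 ± 0.40, DUSP6 at -0.52 ± 0.22 and DUSP5 at -0.35 ± 0.28. PHLDA1 had the lowest value of the list, -1.62 ± 0.37 (limma adjusted p = 0.0902). Several of these genes also respond to FGF signalling, so they are not specific to ERBB receptors. These genes were singled out after their values were seen.

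Among genes that act on the receptors themselves, LRIG1 and LRIG2 had positive differences beside that of LRIG3 (0.62 ± 0.22 and 0.54 ± 0.26), while ERRFI1, a feedback inhibitor of EGFR and ERBB2, had -0.53 ± 0.24 and the ubiquitin ligase gene CBLB had -0.98 ± 0.42, with control 2 well above the other 3 arrays. None of these 4 passed in limma, and they too were named after their values were seen.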
